A study of Arabidopsis thaliana with 12 samples.

Results

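The comparison described here is the growth of the gibberellin effect between 3 h and 9 h in seeds of Arabidopsis thaliana. It is the difference between 2 effects, gibberellin against water at 9 h minus gibberellin against water at 3 h, on log2 of the signal of each probe set. It was computed among the arrays lettered A and among those lettered B, and averaged. Seeds of the Ler background, all from 1 stock, were given water or 5 µM gibberellin. The labels name neither the form of the hormone nor an allele of the stock other than the background. The 4 groups compared are water at 3 h, water at 9 h, gibberellin at 3 h and gibberellin at 9 h, with 2 arrays each, so 8 of the 12 arrays of the series enter the estimate. The other 4 arrays, water and gibberellin at 6 h, entered only the estimate of the spread. Of 22746 probe sets, 12009 (52.8%) had a signal of 32 or more on at least 2 of the 8 arrays and were tested, and 9379 of these reached 32 on all 8. Just inside the filter were 420 probe sets with 32 or more on exactly 2 arrays, and just outside it 676 with 1 such array. The labels do not say whether A and B came from separate lots of seed, so the p-values cover only the spread among arrays, which may be technical.

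Gibberellin is the hormone that promotes germination. It binds the GID1 receptors, and the bound receptor lets the F-box protein SLY1 mark the DELLA repressors of growth for destruction. In seeds the hormone is known for the loosening of cell walls and the breakdown of stored protein, and abscisic acid, the hormone of dormancy, opposes it. A growing response can be a rise that becomes larger or a fall that becomes deeper, and a fading one the opposite. The 4 classes are called here gained rise, gained fall, lost rise and lost fall, by whether the effect was larger in size at 9 h or at 3 h.

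The 8 arrays had a common trimmed mean signal of 100. The highest signal was between 3308 and 3760 on the A arrays of 3 h and between 6511 and 9143 on the other 6 arrays, so this ceiling differed between the times among the A arrays but not between water and gibberellin. As a sign of RNA integrity, the 3'/5' ratio was between 1.09 and 1.5 for the Actin control and for GAPDH between 0.784 and 1.17. The ubiquitin ratio was between 1.31 and 1.94 on the A arrays and between 2.08 and 2.97 on the B arrays. None of the 7 storage, oleosin and LEA marker genes of seeds has a probe set that names it alone. Of the leaf markers 2 of 6 were measured, and their summed signal ranged from 307 (gibberellin 3 h) to 833 (gibberellin 3 h) over the 8 arrays. The seed coat markers BAN and DFR were under the filter, with medians of 7.18 and 23.3. No endosperm marker of the list was measured, so embryo and endosperm were not told apart. In whole seeds fewer cells of a type and less RNA per cell cannot be told apart.

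In nearly all probe sets whose response to gibberellin changed between 3 h and 9 h, the effect was larger in size at 9 h. Of the 12009 probe sets 188 (1.57%) passed the test (limma, adjusted p under 0.05), 72 with a higher effect at 9 h (0.6%) and 116 with a lower one (0.966%). On log2(signal + 32) the balance turned, with 144 higher and 118 lower of 262. The 188 were 71 gained rises, 114 gained falls, 2 lost rises and 1 lost fall. The median effect of the 71 gained rises went from 0.63 at 3 h to 2.52 at 9 h, and that of the 114 gained falls from -0.25 to -1.68. Over all tested probe sets the median growth was -0.02. In 178 of the 188 the growth was at least 2-fold, against 838 of the 12009 tested. In all 188 it had 1 sign in the A and in the B arrays, against 7265 of the 12009. A disagreement between A and B enters the error of the test, so the choice of the 188 favours equal signs. Of the 188, 86 name exactly 1 gene, 101 are unnamed here and 1 names several genes. Genes given below by locus have no other name in the reference table. At 3 h alone 119 probe sets passed (0.991%), at 6 h 949 (7.9%) and at 9 h 2864 (23.8%). The growth contrast shares its arrays with the tests at 3 h and 9 h. Its median standard error was 0.314 against 0.222 for an effect at 1 time, so for most genes that passed at 9 h alone the growth is not settled.

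The calls rest on the letter as a block and on the intensity trend of the variance. Without the block 2 probe sets passed and without the trend 1. The estimates themselves are identical in these fits, and only their errors differ. When 1 array was left out the count lay between 37 and 346: among the water arrays, leaving out 3 h A gave 81, 3 h B 58, 9 h A 41 and 9 h B 102 calls, and among the hormone arrays 3 h A gave 346, 3 h B 37 and 9 h B 56.

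**Figure D1:**
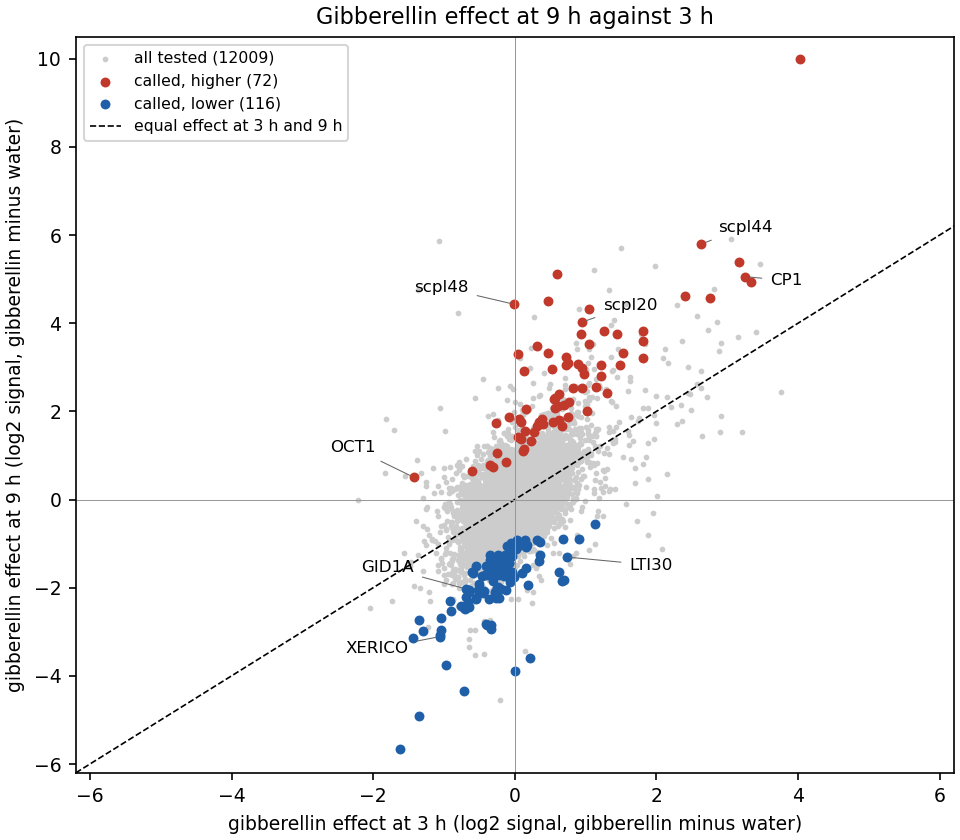
Gibberellin effect at 3 h (horizontal) and at 9 h (vertical), each as log2 signal in gibberellin minus water averaged over A and B, for the 12009 tested probe sets (grey), the 72 called with a higher effect at 9 h (red) and the 116 called with a lower one (blue). Nearly all coloured points lie farther from zero at 9 h than at 3 h, above the dashed line of equal effects for rises and under it for falls.

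Serine carboxypeptidase-like genes stand first among the named gained rises. The serine carboxypeptidase-like (scpl) family is named for enzymes that remove amino acids from the end of proteins. The activity of its members was not measured here. Of its 29 genes with a probe set of their own, 11 were bright enough to be tested. Of these 11, 4 (scpl20, scpl25, scpl44 and scpl48) grew in response and 0 fell, against 0.6% and 0.966% of all tested probe sets. As scpl48 lay under 32 on every water array, the filter kept it through gibberellin arrays, and the 4 are a description only. The median growth of the 11 was 0.73. For scpl20 (AT4G12910) the signal of the A and the B array was 303 and 126 at 3 h and 175 and 108 at 9 h in water, and 798 and 179.5 at 3 h and 2409.7 and 2079 at 9 h in gibberellin. Each gibberellin array of 9 h lay above every array of the other 3 groups, while at 3 h the B array of gibberellin lay under the A array of water. The effect of 0.95 at 3 h and 4.03 at 9 h gives a growth of 3.07 ± 0.457 (SE; adjusted p = 0.00448). The signal of scpl44 (AT1G43780) was 43.5 and 10.9 at 3 h and 40.3 and 15.5 at 9 h in water, and 435 and 42 at 3 h and 1623 and 1192 at 9 h in gibberellin. Gibberellin lay above water with each letter at both times. Its effect of 2.64 at 3 h and 5.80 at 9 h grew by 3.16 ± 0.664 (SE; adjusted p = 0.0272), and it was called in 6 of the 12 leave-one-out fits. The signal of scpl48 (AT3G45010) was 19.1 and 12.4 at 3 h and 11.1 and 12.5 at 9 h in water, and 51.6 and 4.57 at 3 h and 227 and 283 at 9 h in gibberellin. Here only the 2 gibberellin arrays of 9 h and the A array of gibberellin at 3 h exceeded 32, so that the size of the growth, 4.43 ± 0.939 (SE; adjusted p = 0.029), depends on values near the floor, and it was 2.49 on log2(signal + 32). scpl48 was called in 7 of the 12 fits. For scpl25 (AT3G02110) the growth was 1.60 ± 0.381 (SE; adjusted p = 0.0499), called in 3 of the 12 fits.

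A subtilisin-like protease, SBT1.3 (AT5G51750), and the cysteine proteinase CP1 (AT4G36880) had growing responses as well. SBT1.3, and scpl25 above, were singled out after their values had been seen. The CP1 signal was 223 and 174 at 3 h and 118 and 105 at 9 h in water, and 2432 and 1449.9 at 3 h and 3667 and 3743 at 9 h in gibberellin. Both treatments were already far apart at 3 h, and the gap widened from 3.25 to 5.06, a growth of 1.80 ± 0.332 (SE; adjusted p = 0.0138), called in 7 of the 12 leave-one-out fits. In CP1 the estimated change between 3 h and 9 h was nearly as large in water (-0.82) as in gibberellin (0.98). The change in water did not pass (adjusted p = 0.998), while that in gibberellin did (adjusted p = 0.018). The effect on SBT1.3 went from 0.61 at 3 h to 2.13 at 9 h, a growth of 1.51 ± 0.335 (SE; adjusted p = 0.0367), called in 4 of the 12 fits.

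Among genes of the cell wall, 10 genes of the XTH family have a probe set of their own, and 7 of these were under the filter. Of the 3 tested xyloglucan endotransglucosylase/hydrolases (XTH), which cut and rejoin wall xyloglucan, 2 grew in response and 0 fell, against 0.6% and 0.966% of all tested probe sets. The effect on XTH16 (AT3G23730) went from 0.56 at 3 h to 2.29 at 9 h, a growth of 1.73 ± 0.339 (SE; adjusted p = 0.0182) and a call in 6 of the 12 leave-one-out fits. XTH19 (AT4G30290) had effects of 1.53 at 3 h and 3.32 at 9 h, and its growth of 1.80 ± 0.427 (SE; adjusted p = 0.0499) lay at the threshold, was called in 3 of the 12 fits and differed between A (0.75) and B (2.84). The median of the 3 was 1.73. AT4G32460, a gene of the DUF642 wall protein family, went from 0.98 at 3 h to 2.84 at 9 h, a growth of 1.87 ± 0.341 (SE; adjusted p = 0.0134), called in 6 of the 12 fits. Expansins loosen walls. Of the 37 in the reference 19 have a probe set of their own, 6 were bright enough to be tested and 0 of the 6 passed in either direction, against 1.57% of all tested probe sets. In 5 of the 6 the growth was above 0, and the median was 0.87. EXPA9 (AT5G02260) had 2.12 ± 0.567 (SE; adjusted p = 0.0808) and EXPA4 (AT2G39700) 2.59 ± 1.23 (SE; adjusted p = 0.352). Neither of these passed, and the 95% interval of EXPA4 ran from -0.02 to 5.21. EXPA4 lay under 32 on every water array, down to 0.622 for B at 9 h, so the filter kept it through gibberellin arrays. Its growth was 0.76 in A and 4.42 in B, and 0.58 on log2(signal + 32).

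The other named gained rises follow. AT5G45650, given by locus alone, was not assigned to a family. The signal of AT5G45650 was 134 and 42 at 3 h and 59.3 and 27.1 at 9 h in water, and 211 and 41.5 at 3 h and 601 and 330.0 at 9 h in gibberellin. At 3 h the B arrays of water and gibberellin were nearly equal, and at 9 h both hormone arrays lay above all others. Its growth was 3.16 ± 0.393 (SE; adjusted p = 0.0015), and it was called in all 12 leave-one-out fits. YLS5 (AT2G38860), a gene named for its transcript in yellowing leaves, grew from 0.72 at 3 h to 3.05 at 9 h (2.33 ± 0.344, adjusted p = 0.00448), also in all 12 fits. ATLP-1 (AT1G18250), a thaumatin-like protein, grew from 0.89 at 3 h to 3.08 at 9 h (2.19 ± 0.392). COR47 (AT1G20440) encodes a dehydrin, a protein known from cold and drought. Its signal was 63 and 42.7 at 3 h and 43.2 and 35.9 at 9 h in water, and 135 and 41.3 at 3 h and 385 and 242 at 9 h in gibberellin. The B arrays of both treatments were nearly equal at 3 h, and both hormone arrays of 9 h lay above all others. The effect rose, with a growth of 2.42 ± 0.419 (SE; adjusted p = 0.0106), which is opposite to the dehydrin gene LTI30 described among the falls.

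Further gained rises that carry a gene symbol were singled out after their values had been seen. They were VTC4 (AT3G02870), a phosphatase of ascorbate synthesis, with 1.70 ± 0.288 (SE; adjusted p = 0.0101), and STR18 (AT5G66170), a sulfurtransferase, with 1.36 ± 0.303 (SE; adjusted p = 0.038). Fes1B (AT3G53800), a nucleotide exchange factor of Hsp70 chaperones, had 1.31 ± 0.297 (SE; adjusted p = 0.0397) and the thioredoxin gene ty2 (AT1G43560) 1.41 ± 0.333 (SE; adjusted p = 0.0488). In each of these 4 the effect at 3 h was under 1 (0.82, 0.31, 0.39 and 0.14) and the effect at 9 h over 1.5. Of the 12 leave-one-out fits VTC4 was called in 9, Fes1B in 5, ty2 in 4 and STR18 in 3.

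**Figure D2:**
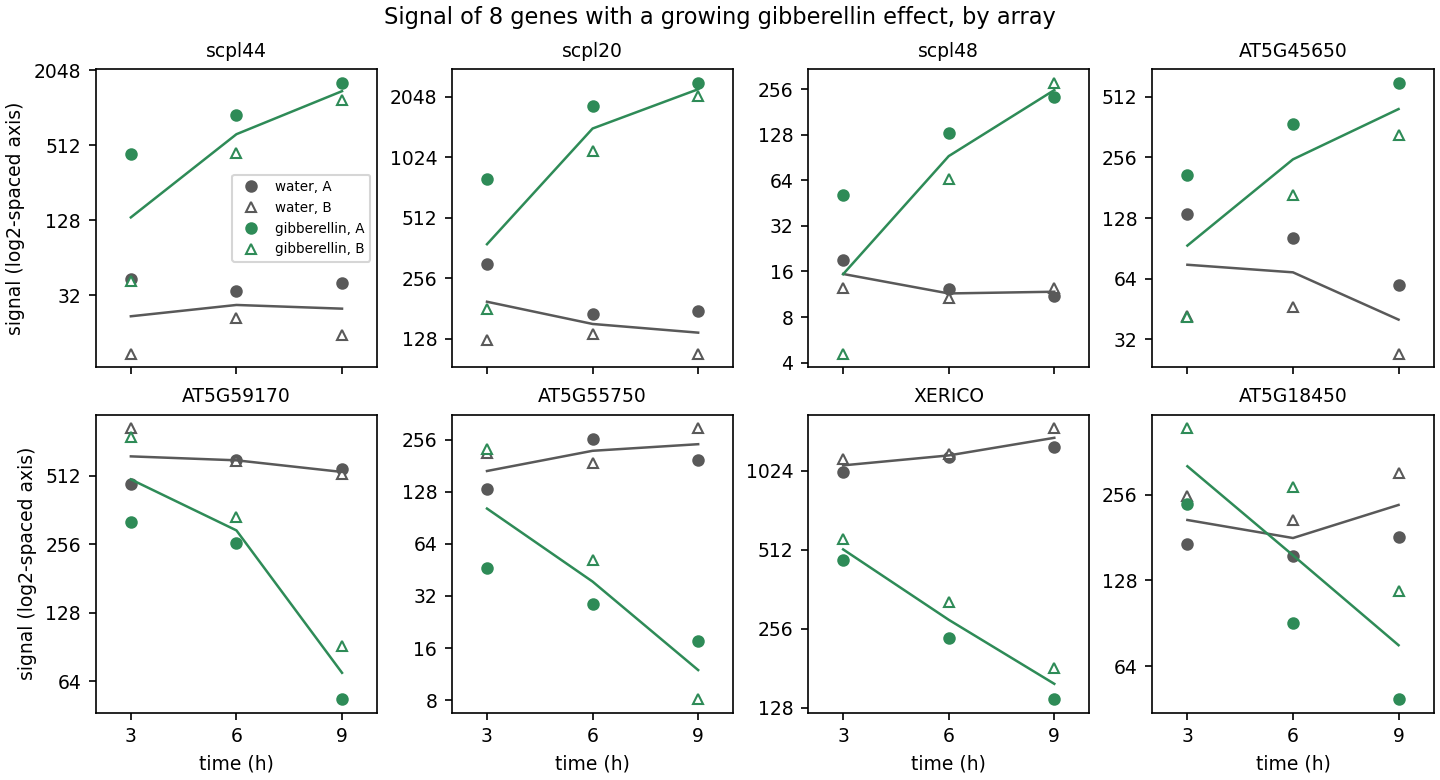
Signal of scpl44, scpl20, scpl48, AT5G45650 (top row, gained rises) and AT5G59170, AT5G55750, XERICO and AT5G18450 (bottom row, gained falls) at 3, 6 and 9 h on a log2-spaced axis. Filled circles are A arrays, open triangles B arrays, grey is water, green is gibberellin, and lines join the means of log2 signal. At 9 h both gibberellin arrays lie apart from both water arrays in each of the 8 genes.

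XERICO (AT2G04240), whose RING-type product increases abscisic acid levels in plants that overexpress it, had the smallest adjusted p of the named genes. Its signal was 1014 and 1131 at 3 h and 1254 and 1483 at 9 h in water, and 468 and 562 at 3 h and 138 and 181 at 9 h in gibberellin. Gibberellin lay under water at both times without overlap, and the effect deepened from -1.06 to -3.11. The growth was -2.05 ± 0.211 (SE; adjusted p = 0.000437), with -2.07 in A and -2.03 in B, and it passed in all 12 leave-one-out fits. XERICO is the 1 tested member of the 13 genes listed for abscisic acid and dormancy. HIS1-3 (AT2G18050), a linker histone known to be induced by drought, deepened from -1.04 at 3 h to -2.69 at 9 h, a growth of -1.65 ± 0.256 (SE; adjusted p = 0.00528) that also passed in all 12 fits. It was the 1 called gene among the 6 tested histones, whose median growth was 0.09. AOP3 (AT4G03050), an oxygenase of glucosinolate synthesis, deepened from -1.35 at 3 h to -2.74 at 9 h (-1.39 ± 0.269, adjusted p = 0.0174, 7 of the 12 fits). AT2G28400, already lower by the test at 3 h, deepened from -1.30 at 3 h to -2.98 at 9 h, a growth of -1.68 ± 0.299 (SE; adjusted p = 0.0125), called in 9 of the 12 fits. AOP3 and AT2G28400 were picked as early responders after their values had been seen.

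Of the 10 gained falls that rank first on log2(signal + 32), 8 carry a locus only. The signal of AT5G59170 was 469.6 and 830.2 at 3 h and 547 and 520.0 at 9 h in water, and 320.5 and 763 at 3 h and 53.3 and 91.2 at 9 h in gibberellin. At 3 h the groups overlapped, and at 9 h both hormone arrays lay far under all others, a growth of -2.60 ± 0.359 (SE; adjusted p = 0.00292). The signal of AT5G55750 was 132 and 215 at 3 h and 195 and 298 at 9 h in water, and 46.4 and 226 at 3 h and 17.6 and 8.1 at 9 h in gibberellin. Its gibberellin arrays of 9 h lay under 32, and its growth of -3.61 ± 0.726 (SE; adjusted p = 0.0204) differed between A (-1.96) and B (-5.27), with a call in 6 of the 12 leave-one-out fits. AT5G36160 deepened from -0.41 at 3 h to -2.82 at 9 h and AT1G54860 from -0.26 at 3 h to -2.22 at 9 h. AT1G47980, AT3G58450 and AT5G45690 had effects between -0.19 and -0.01 at 3 h and between -2.03 and -1.77 at 9 h, so nearly their whole response came after 3 h. AT5G59170, AT5G36160, AT1G47980, AT3G58450 and AT5G45690 passed in all 12 fits and AT1G54860 in 9. Singled out after their values had been seen, TET4 (AT5G60220), a tetraspanin, had a growth of -1.48 ± 0.329 and PGRL1B (AT4G11960), a protein of photosynthetic electron flow, one of -1.36 ± 0.32. HPR (AT1G68010), a hydroxypyruvate reductase of photorespiration, had the smallest change in size of the 188, -0.90 ± 0.209 (SE; adjusted p = 0.0439). TET4 was called in 6 of the 12 fits and PGRL1B and HPR in 0.

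The transcript of the receptor gene GID1A (AT3G05120) was lower with the hormone, and more so at 9 h. Its signal was 375 and 264 at 3 h and 345 and 298 at 9 h in water, and 217 and 175 at 3 h and 81.8 and 75.9 at 9 h in gibberellin. Gibberellin lay under water with each letter at both times, and the 9 h hormone arrays lay under all others. The effect deepened from -0.69 at 3 h to -2.03 at 9 h, a growth of -1.33 ± 0.227 (SE; adjusted p = 0.0103), with -1.29 in A and -1.38 in B. Of the 12 genes listed for gibberellin perception and signalling 6 have a probe set of their own and 4 were tested. GID1A was the 1 that passed, all 4 had a negative growth, and their median was -0.87. For SPY (AT3G11540), a repressor of gibberellin responses, the growth was -0.70 ± 0.213 (SE; adjusted p = 0.127). For SLY1 (AT4G24210) it was -0.61 ± 0.253 (SE; adjusted p = 0.285) and for the receptor gene GID1C (AT5G27320) -1.04 ± 0.547 (SE; adjusted p = 0.409). These 3 did not pass, and the 95% intervals ran from -1.16 to -0.25 for SPY, -1.15 to -0.07 for SLY1 and -2.21 to 0.12 for GID1C. GID1C was dim, with 12.2 and 15.2 in gibberellin at 9 h, and its growth was -0.38 on log2(signal + 32). With letter B at 3 h its gibberellin array (42.0) lay above that of water (40.2). The other 2 with a probe set of their own were under the filter, and none of the 13 genes of gibberellin metabolism was measured by a probe set that names it alone.

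In 3 called probe sets the effect was larger in size at 3 h. OCT1 (AT1G73220), an organic cation transporter, was the lost fall. Its signal was 389 and 279 at 3 h and 196 and 162 at 9 h in water, and 191 and 78.6 at 3 h and 227 and 282 at 9 h in gibberellin. Gibberellin lay under water with both letters at 3 h and above it with both letters at 9 h. The effect went from -1.43 (adjusted p = 0.0222) to 0.51 (adjusted p = 0.212), a change of 1.93 ± 0.398 (SE; adjusted p = 0.0234) that was called in 6 of the 12 leave-one-out fits. AT1G22180 was the named gene of the class lost rise. Its signal was 26.3 and 24.3 at 3 h and 48.7 and 57 at 9 h in water, and 45 and 50.2 at 3 h and 23.4 and 34.7 at 9 h in gibberellin. Gibberellin lay above water with both letters at 3 h and under it at 9 h. The effect of 0.91 at 3 h did not pass (adjusted p = 0.235), while that of -0.89 at 9 h passed (adjusted p = 0.0454), so the sign turned at nearly equal size. All 8 values are dim, the change of -1.80 ± 0.427 (SE; adjusted p = 0.0499) lay at the threshold, and it was called in 0 of the 12 fits.

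The effect had opposite signs at 3 h and 9 h in 32 of the 188, and in 9 of these both effects exceeded 0.5 in size. Over all 12009 tested the counts were 3745 and 70, so opposite signs as such were less frequent among the 188. The choice of probe sets with a wide gap between the times favours opposite effects of that size. Besides OCT1 and AT1G22180, the named genes among the 9 were LTI30 and AT5G18450. The LTI30 (AT3G50970) signal was 255 and 305 at 3 h and 267 and 379.8 at 9 h in water, and 444 and 485 at 3 h and 107 and 156 at 9 h in gibberellin. With each letter the hormone array was the higher one at 3 h and the lower one at 9 h. The effect went from 0.73 (adjusted p = 0.11) over 0.20 at 6 h to -1.30, a change of -2.04 ± 0.277 (SE; adjusted p = 0.00263). The signal of AT5G18450 was 173 and 253 at 3 h and 182 and 306 at 9 h in water, and 237 and 439 at 3 h and 48.9 and 117 at 9 h in gibberellin, which is the same order with each letter. Its effect went from 0.63 (adjusted p = 0.337) to -1.64, a change of -2.27 ± 0.336 (SE; adjusted p = 0.00448). LTI30 and AT5G18450 passed in all 12 leave-one-out fits, while neither early rise passed by itself.

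Several early responders showed no growth that could be called, and these too were chosen with their values known. EXPA8 (AT2G40610), an alpha-expansin, had effects of 3.40 at 3 h and 3.81 at 9 h, a growth of 0.41 ± 0.321 (SE; adjusted p = 0.622) with a 95% interval of -0.28 to 1.09. Its signal was 78.1 and 72.2 at 3 h and 53.9 and 48.3 at 9 h in water, and 894 and 707 at 3 h and 644 and 796 at 9 h in gibberellin. A growth of 2 on the log2 scale lies outside that interval. SAG29 (AT5G13170), a SWEET sugar transporter, had 2.48 at 3 h and 2.02 at 9 h (interval of the growth -1.25 to 0.32). AT5G55050 had 2.71 at 3 h and 2.33 at 9 h (interval -1.37 to 0.60), with -1.55 in A and 0.78 in B. AT3G25260 was lower with the hormone from the start, with effects of -2.05 at 3 h and -2.46 at 9 h (interval -1.26 to 0.45). ASPGB1 (AT3G16150), an asparaginase, had 2.85 at 3 h and 4.02 at 9 h, a growth of 1.17 ± 0.464 (SE; adjusted p = 0.255) that did not pass. AT3G15720, a pectin lyase-like gene, had the largest growth of these, from 3.06 at 3 h to 5.91 at 9 h, and its 2.85 ± 0.713 (SE; adjusted p = 0.0608) missed the threshold (interval 1.33 to 4.37). In AT3G15720, ASPGB1 and AT5G55050 every water array of 3 h and 9 h lay under 32, so the filter kept them through gibberellin arrays. Their growth on log2(signal + 32) was 2.08, 1.06 and -0.21. SAG29 reached 32 in water only on the A array of 9 h (36.3). Of the 91 probe sets (0.758%) higher with gibberellin at 3 h by the test, 18 passed for a further rise and 1 for a decline, against 0.6% and 0.966% of all tested probe sets. Of the 28 lower ones (0.233%), 8 passed for a deeper fall and 1 for a recovery. These probe sets were picked on the 3 h effect that the growth contrast subtracts, so the counts are a description only.

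The movement with time was mostly in the arm given gibberellin. Between 3 h and 9 h, 1123 probe sets (9.35%) changed in gibberellin, 451 upward (3.76%) and 672 downward (5.6%), and 2 (0.0167%) changed in water. Among the 188 the hormone arm changed more than the water arm in 184, against 8043 of the 12009 tested. Of the 188, 183 passed in the hormone arm and 1 in water. The median change of the 72 with a higher effect was 1.52 in gibberellin and -0.19 in water, and that of the 116 with a lower effect was -1.31 and 0.15. In 140 of the 188 the 2 arms moved in opposite directions, against 5524 of the 12009 tested. The water and hormone changes together make up the growth contrast, so these counts describe it and are no further test.

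**Figure D3:**
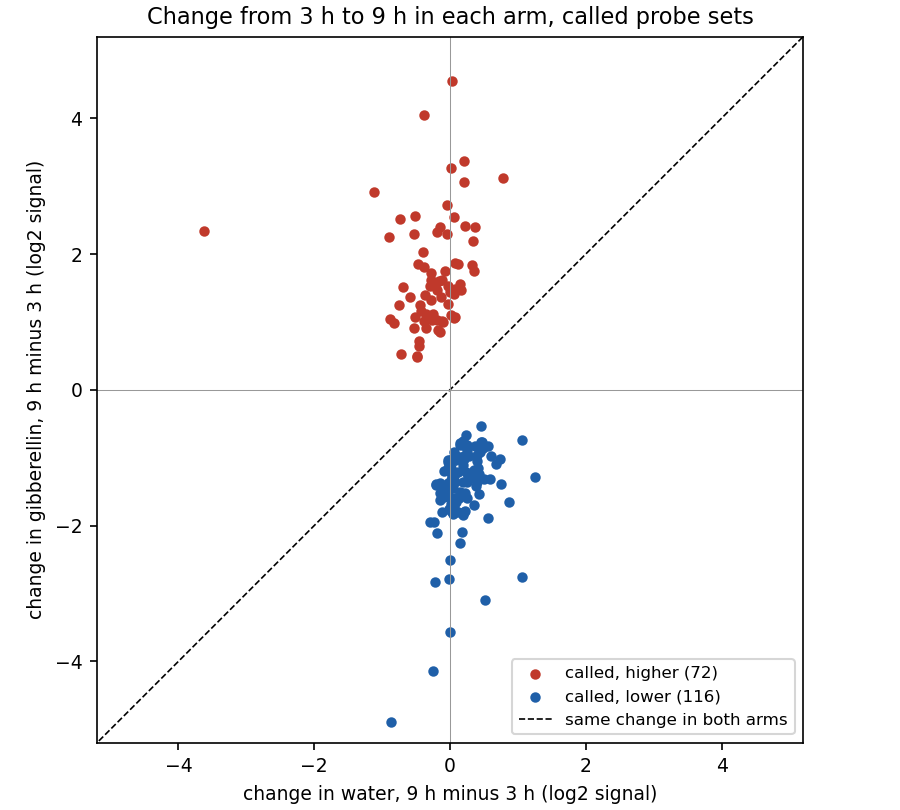
Change of log2 signal from 3 h to 9 h in water (horizontal) and in gibberellin (vertical) for the 188 called probe sets, red with a higher and blue with a lower effect at 9 h. Points lie along the vertical axis, with changes in water mostly within 1 of zero and changes in gibberellin down to -4.9 and up to 4.56.

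The arrays of 6 h take no part in the growth estimate. In 185 of the 188 the effect at 6 h lay between those of 3 h and 9 h, which the choice of probe sets with a wide gap between those times favours. By count, the larger step came early in most rises and late in most falls. In 51 of the 72 with a higher effect the step from 3 h to 6 h was larger in size than the step from 6 h to 9 h, with medians of 1.07 and 0.69. In 71 of the 116 with a lower effect the later step was the larger one, with medians of -0.63 and -0.85. Over all tested probe sets the first step was larger in 46.4%. Among rises scpl48 had 3.02 in the first step and 1.41 in the second, and YLS5 1.69 and 0.64. XTH19 went the other way, with 0.44 and 1.35. Among falls AT5G59170 had -0.69 and -1.91, LTI30 -0.54 and -1.50, and XERICO nearly equal steps of -1.02 and -1.03. Tested alone with limma, 1 probe set (0.00833%) passed for the first step (639 with an unadjusted p under 0.05) and 0 for the second (853), so for single genes this order is not settled, and the difference between rises and falls was not tested.

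**Figure D4:**
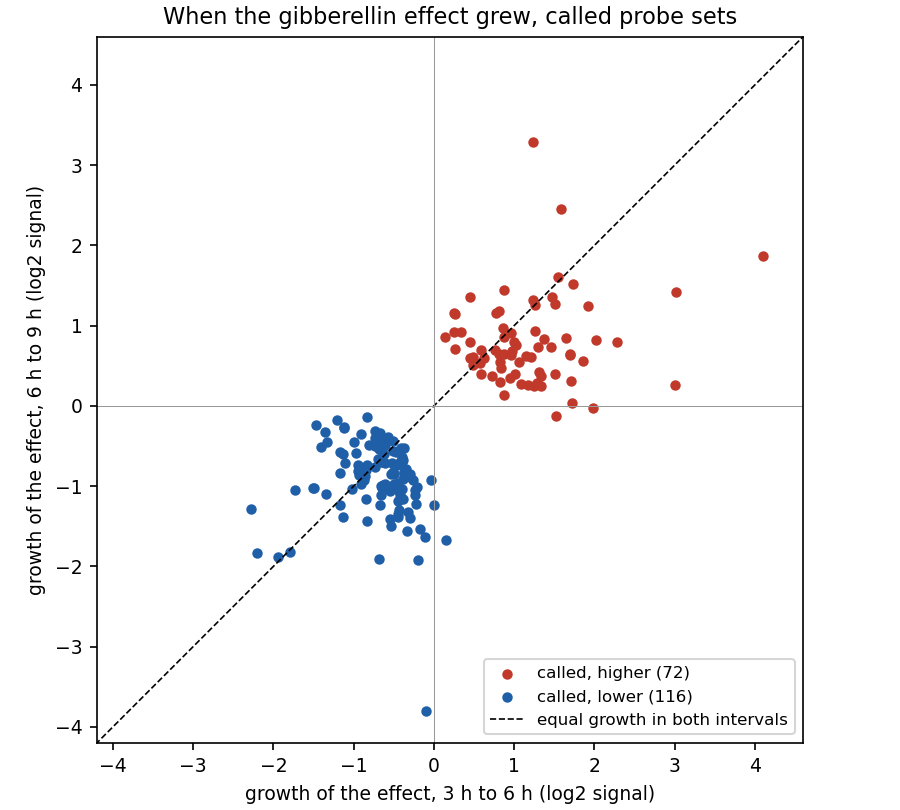
Growth of the gibberellin effect from 3 h to 6 h (horizontal) and from 6 h to 9 h (vertical), as log2 signal, for the 188 called probe sets. Red points (higher effect at 9 h) lie mostly under the dashed line of equal steps, and blue points (lower effect) mostly under it as well, which for falls means a larger later step.

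For the 188 the A and B arrays gave growth of the same direction, which the test favours, but not of the same size. Of the 72 with a higher effect, 56 grew more in B than in A, with medians of 2.01 and 1.36. The median effect of these 72 was 1 in A and 0.402 in B at 3 h, against 2.4 and 2.59 at 9 h, so for these the letters lay farther apart at 3 h than at 9 h. At 6 h, when the A arrays had the low ceiling as well, the medians were 1.95 in A and 1.77 in B. Of the 116 with a lower effect 65 had the larger growth in B, with medians of -1.48 in B and -1.47 in A. Over all 12009 tested the growth was larger in size in B in 6908, and the 65 of 116 lie near that share. The median effect of these 116 was -0.43 in A and -0.13 in B at 3 h and -1.82 and -1.54 at 9 h, a gap of about the same size at both times. Without gibberellin 3 h A the count of calls was 346, and on the 8 arrays of the series with the high ceiling, which leave 1 residual degree of freedom, it was 589, with 178 of the 188 among them. The part of the ceiling in the difference between the letters was not tested.

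**Figure D5:**
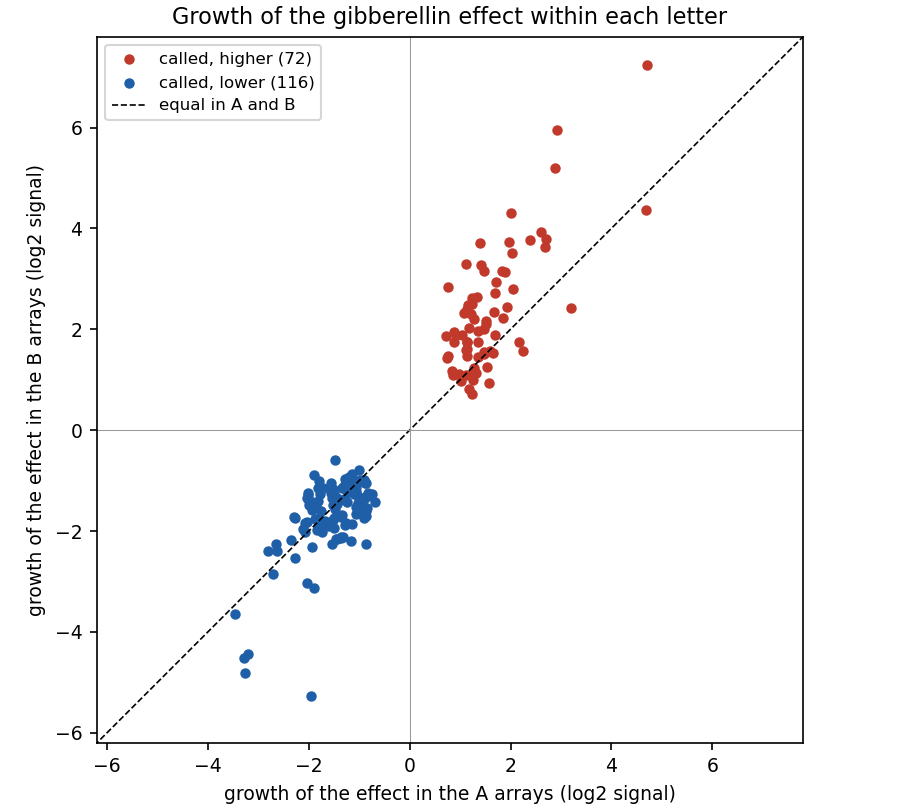
Growth of the gibberellin effect from 3 h to 9 h within the A arrays (horizontal) and within the B arrays (vertical), as log2 signal, for the 188 called probe sets. All points lie in the quadrants of equal sign, which the test favours. Most red points (56 of 72) lie above the dashed line of equal growth.

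Other gene lists held few or no calls, against 1.57% of all tested probe sets. Of the 7 tested LEA proteins and dehydrins found by name, which protect cells during drying, 0 passed. The median of the 7 was -0.65, and 3 of them were above 0. The lowest were -1.03 for LEA (AT2G21490) and -0.77 for LEA4-5 (AT5G06760), and the highest 0.53 for AT2G44060 and 0.47 for AT2G46140. The called dehydrin genes COR47 and LTI30 carry names that did not place them on this list. Lists hold only genes matched by locus or name, so called genes given by locus alone may belong to this or another listed family. Of the 7 tubulins, subunits of microtubules, 0 passed. Their median was 0.51, with 2.06 ± 0.587 (SE; adjusted p = 0.104) for TUB5 (AT1G20010) and 1.3 ± 0.558 for TUB1 (AT1G75780). Of the 11 glycosyl hydrolases 0 passed, and the extremes were the beta-glucosidase genes PYK10 (AT3G09260) with 2.38 ± 0.614 (SE; adjusted p = 0.0702) and BGLU19 (AT3G21370) with -2.96 ± 0.72 (SE; adjusted p = 0.0558). Neither passed, and their values have opposite signs. Of the 10 genes of the TCA cycle and glycolysis 0 passed, with a median of 0.28 and 0.80 ± 0.232 for SDH2-1 (AT3G27380), a subunit of succinate dehydrogenase.

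For lipid mobilisation 0 of 4 passed and the median was -0.04. The isocitrate lyase gene ICL (AT3G21720) of the glyoxylate cycle showed a growth of 1.08 ± 0.608 (SE; adjusted p = 0.451) and AIM1 (AT4G29010), an enzyme of beta-oxidation, one of -0.42 ± 0.236. Of 24 photosynthesis genes, psbA among them, 0 passed, with a median of -0.03. Of 21 UDP-glycosyltransferases 0 passed and the median was -0.06, with 2.76 ± 1.02 (SE; adjusted p = 0.217) for UGT85A7 (AT1G22340) and 1.49 ± 0.395 (SE; adjusted p = 0.078) for UGT74B1 (AT1G24100). Of the 8 arrays, UGT85A7 reached 32 only on those of gibberellin at 9 h, and its growth was 1.04 on log2(signal + 32). Among 8 sugar and amino acid transporters, 5 cytochrome P450 genes, 5 cellulose synthases, 5 helix-loop-helix and 3 WRKY genes 0 passed as well. In lists with 1 tested member each, OLEO3 (AT5G51210), an oleosin, had -0.30 ± 0.229 and EIN3 (AT3G20770), a regulator of ethylene response, -0.50 ± 0.234. The pectin methylesterase gene ATPMEPCRB (AT4G02330) had 1.89 ± 1.13, or 0.69 on log2(signal + 32). Only its gibberellin arrays of 9 h reached 32 (34.1 and 37), so the filter kept it through the group where it was high. Of these 3, 0 passed.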

How the data were processed

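Total RNA from seeds was measured on 12 one-colour Affymetrix arrays labelled with biotin. The authors deposited a linear intensity value for each probe set, made with MAS5, as the submitters' processing notes name it without a version. They were taken to log2 as deposited, without offset. After 64 control probe sets were left out, 22746 remained. The platform annotation gives 1 gene for 13513, several for 503 and none for 8730. RefSeq's TAIR10.1 table held 13436 of the 13513 genes, and the other 77 kept the annotation's name.

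A linear model with 6 group means and the letter was fitted to 12 arrays with limma 3.58.1 in R 4.3.3 (5 residual and 10.01 prior degrees of freedom, intensity trend). Tests are two-sided, with Benjamini-Hochberg adjustment over 12009 probe sets and a threshold of 0.05. The procedure was tested on simulated data. The A minus B deviations of the 6 groups correlated between 0.221 and 0.586 in all 15 pairs of groups, and the block is part of how the comparison is defined.

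Named are, in each class and by growth on log2(signal + 32), up to 10 gained rises, 10 gained falls, 6 lost rises and 6 lost falls that name 1 gene and have 1 sign in A and B. Also named are up to 3 called or 2 other members of each list, all measured genes of gibberellin perception, and early responders picked from earlier results. Members, lists and tests were chosen with earlier results of these data known. List entries came from loci or from name patterns, and many lack a probe set of their own. For GASA peptides, ribosomal proteins, translation factors, GDSL lipases, aquaporins, arabinogalactan proteins, auxin response, MYB genes and organelle-encoded genes as lists of their own, 0 probe sets were tested. Lists not described in the report with 1 tested member were proteasome (0.11, RPN12a), heat shock (-0.04, Hsp70-2), cell cycle (0.77, PRL), peroxidases (-0.50, PRX52), NAC (-0.33, NAC014) and homeobox genes (0.47, AT4G03090), and 0 of them passed. Of the 8 arrays, PRL reached 32 only on those of gibberellin at 9 h. Promoter motifs, planned as a description, and protein sequences were not analysed here.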

Additional observations from a re-analysis of the deposited data

Results flagged for a closer look

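In 27 of the named genes the gibberellin effects at 3 h and at 9 h differed by the test of the difference itself, and the values are the growth of the effect on the log2 scale. Among the scpl genes and CP1 they were 4.43 for scpl48, 3.16 for scpl44, 3.07 for scpl20 and 1.80 for CP1. For other rises they were 3.16 for AT5G45650, 2.42 for COR47, 2.33 for YLS5, 2.19 for ATLP-1, 1.87 for AT4G32460, 1.80 for XTH19 and 1.73 for XTH16, and for the class lost fall 1.93 for OCT1. For falls they were -3.61 for AT5G55750, -2.60 for AT5G59170, -2.41 for AT5G36160, -2.27 for AT5G18450, -2.05 for XERICO, -2.04 for LTI30, -1.96 for AT1G54860, -1.84 for AT5G45690, -1.81 for AT1G47980 and -1.76 for AT3G58450. They were also -1.68 for AT2G28400, -1.65 for HIS1-3, -1.39 for AOP3 and -1.33 for GID1A, and for the class lost rise, by sign a turn from above to under 0, -1.80 for AT1G22180. Groups of 2 arrays were too small for a search for single outlying arrays.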

How the results depend on the processing

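All 188 calls kept their direction in every alternative in which they were tested, which for no replicate block and no intensity trend follows from their identical estimates. Against 188 calls (72 higher, 116 lower), the count was 2 (0 and 2) with no replicate block, 1 (0 and 1) without an intensity trend, where the prior degrees of freedom were 4.09, and 73 (23 and 50) when the test was kept to single-gene probe sets. It was 589 (281 and 308) on the high-ceiling arrays with the replicate block, an alternative chosen after seeing the data. On log2(signal + 32) it was 262, with 144 higher and 118 lower. Leaving out 1 array gave 37 to 346 calls, 12 to 162 higher and 23 to 184 lower. The remaining settings (the 8 arrays of 3 h and 9 h, quantile normalization, median centring, no filter, a signal of 64, robust variances, the signal ceiling as a second block) gave 149 to 226. The causes were not tested. The 27 calls among genes named by the rule or picked as early responders were all lost with no replicate block (adjusted p from 0.101 to 0.705). They were also lost without the trend (0.0589 to 0.183). Of the 27, 12 held in all 12 fits that leave out 1 array and in the 10 other settings. Changes of sign met only genes that were not called. Hsp70-2 had 0.013 with median centring and 0.59 on log2(signal + 32). With 1 array left out it ranged from -1.20 to 1.13, being above 0 without 3 h B (1.13) or 9 h B (0.58) of water or without 3 h A (0.31) or 9 h A (0.15) of gibberellin. AT5G55050 had 0.50 on the high-ceiling arrays and ranged from -1.05 to 0.28, being above 0 without 3 h A of water (0.02) or of gibberellin (0.28). psbA ranged from -0.078 (without water 9 h B) to 2.80, PRX52 from -1.01 to 0.0019 and PSAN from -0.075 to 2.21, the last 2 changing sign without gibberellin 3 h B. With 2 arrays a group, signals near the floor limit what can be seen.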

Other observations

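Some of the largest growth was in probe sets that are unnamed here. For 250780_at the signal was 60.1 and 20.8 at 3 h and 4.73 and 1.73 at 9 h in water, and 1140.2 and 293 at 3 h and 2332 and 3657 at 9 h in gibberellin, and its growth was 5.97 ± 0.68 (SE; adjusted p = 0.0008), or 3.25 on log2(signal + 32). It was the 1 called probe set whose change in water also passed, toward values near the floor. The effect of 252607_at went from 0.59 at 3 h to 5.11 at 9 h. Of the 8 arrays only those of gibberellin at 9 h reached 32, and its growth was 2.88 on log2(signal + 32). For 261866_at, the call with the smallest adjusted p, the signal was 536 and 520.1 at 3 h and 554 and 496 at 9 h in water, and 258 and 281 at 3 h and 40.8 and 37.1 at 9 h in gibberellin, a growth of -2.78 ± 0.221 (SE; adjusted p = 2.69e-05). It was 1 of the 2 calls left without the replicate block and the 1 left without an intensity trend. For 262310_at the effect deepened from -1.35 at 3 h to -4.91 at 9 h, with mean signals at 9 h of 1024 ± 81.9 in water and 35.5 ± 14.4 in gibberellin (SD, n = 2).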
